A study of Sus scrofa domesticus with 9 samples.

Results

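The genes described here are 40 genes of hepatic stellate cells and of the extracellular matrix, chosen by name: 7 markers of stellate and other mesenchymal cells, the main collagens and laminins, proteoglycans, matrix glycoproteins, crosslinking enzymes, matrix proteases with their inhibitors, and genes of TGF-beta signaling. They were looked up by gene symbol in the table of 1054 genes with counts per library and, where absent there, by the Ensembl identifier of the symbol in the table of 16223 genes. Of the 40 genes, 5 had counts in every library (DES, DCN, MMP14, TIMP1 and TIMP3), 34 had only the authors' mean in the larger table, and TIMP2 was not matched to an identifier and was not analysed here. The PN group consisted of 6 preterm Yorkshire piglets that received parenteral nutrition (PN) until collection, with a soybean oil lipid emulsion through a central venous catheter, and a daily medium chain triglyceride vehicle by gavage. The bottle-fed group consisted of 3 preterm Yorkshire piglets that carried the same kind of catheter, were fed a sow milk replacer by bottle from the first night, and were weaned off PN within the first days of life. Livers were collected on day of life 15 and bulk mRNA was sequenced. The groups came from separate litters and only the PN group received the gavage vehicle, so feeding, litter and vehicle cannot be told apart.

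Hepatic stellate cells lie between hepatocytes and the sinusoidal endothelium and store vitamin A. When activated by TGF-beta, platelet-derived growth factor and other signals, they turn into contractile myofibroblasts that secrete fibrillar collagens, fibronectin and proteoglycans. The amount of matrix that stays in the tissue depends on secretion, on crosslinking, and on the balance between matrix metalloproteinases and their tissue inhibitors, the TIMPs.

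Total counts per library ran between 17337946 and 23421807 in PN livers and between 17106838 and 24025142 in bottle-fed livers. The study excluded 1 PN library as an outlier without naming it in its text, and the library marked in its clustering plot bears the label of PN 5. PN 5 was therefore left out of the main comparison, so that 5 PN and 3 bottle-fed livers were compared. For the members with counts per library, its values are given beside the others. Of all libraries, PN 5 most often stood alone: 54 of the 1054 genes were more than 2 times as high in it as in every other library, against 1 to 5 genes in each of the other libraries. Only genes at or above a floor of normalized counts in the library itself were counted. The hepatocyte markers on a list of 13 were measured for 12 genes, with a median of 126954 mean normalized counts. In bulk tissue, fewer cells of a type and less RNA per cell cannot be told apart. The p-values set the difference against the spread between animals within each group. Since the groups came from separate litters, the p-values do not measure the spread between litters. With 5 against 3 livers, the smallest p that the two-sided exact permutation test can give is 0.0179.

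Among the 5 genes with counts in every library, 4 were higher in PN livers (DES, MMP14, TIMP1 and TIMP3) and 1 was lower (DCN), each at an adjusted p under 0.05 (edgeR's quasi-likelihood test with Benjamini-Hochberg adjustment over 1054 genes). These genes stand for a marker of stellate cells, a protease, 2 protease inhibitors and a proteoglycan. No collagen of the 40 genes, no crosslinking enzyme and no TGF-beta gene of the 40 had counts per library, so no PN and bottle-fed values were compared for those roles. The table of 1054 genes holds only genes that the authors had already called between the groups on these libraries. The paper reports more differentially expressed genes than this table holds, so absence from it does not show that a member was not called. Of the 1054 genes, 54.1% were higher and 45.6% were lower in PN livers at an adjusted p under 0.05 in the same test. Nothing is read from the counts of members or of listed genes against these shares. A gene of this table was therefore close to certain to pass. The adjusted and permutation p-values given for its genes follow that choice and are no independent evidence of a difference. The table covered 12.8% of the measured members and 6.39% of all genes. The plot of log2 fold changes shows the members beside the other matrix and signaling genes described further on.

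**Figure D1:**
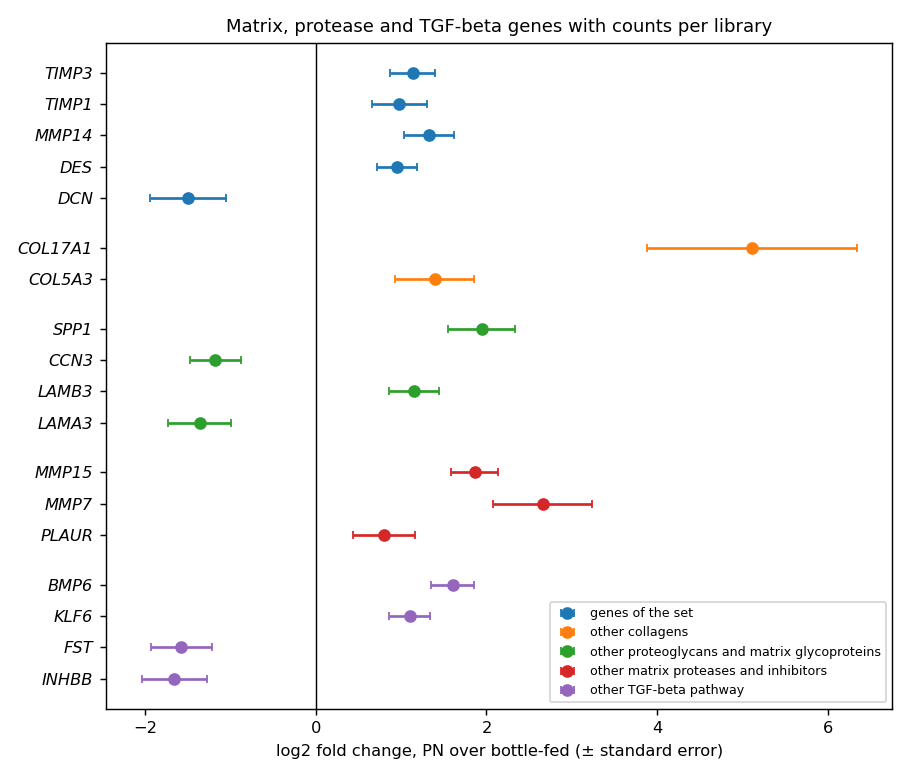
Log2 fold change of PN over bottle-fed livers with its standard error (edgeR, 5 PN and 3 bottle-fed livers) for the 5 members with counts per library and the other named collagen, matrix, protease and TGF-beta genes, without MMP13, which had 2 reads in bottle-fed livers. MMP14, TIMP3, TIMP1 and DES lie above 0 and DCN lies below 0 at -1.50.

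The promoters of MMP14 and TIMP3 are shown because these are the members with the largest log2 fold changes among those higher in PN livers, a protease and an inhibitor of proteases. Each sequence is the 250 bases just before the start site in the table's annotation, written in the direction of transcription and read from the RefSeq copy of Sscrofa11.1, the build named in the submitters' notes. Capitals mark the GC box GGGCGG, searched on both strands (CCGCCC on the other strand).
MMP14 (chr7:76185924-76186173, - strand): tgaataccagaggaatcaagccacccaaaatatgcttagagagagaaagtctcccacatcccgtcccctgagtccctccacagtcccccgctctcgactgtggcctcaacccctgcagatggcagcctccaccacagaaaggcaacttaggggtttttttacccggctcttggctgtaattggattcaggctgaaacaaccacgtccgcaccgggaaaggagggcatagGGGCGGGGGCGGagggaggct
TIMP3 (chr5:12242638-12242887, - strand): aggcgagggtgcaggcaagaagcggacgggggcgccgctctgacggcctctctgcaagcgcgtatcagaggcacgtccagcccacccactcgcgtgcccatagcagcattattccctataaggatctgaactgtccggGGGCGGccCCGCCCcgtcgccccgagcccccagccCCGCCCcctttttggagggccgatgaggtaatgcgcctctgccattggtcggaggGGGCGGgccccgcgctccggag
The TIMP3 window held 4 GC boxes and the MMP14 window held 2, and the GC box was found in 55.5% of the windows of 905 protein-coding genes of the table. The GC content was 69.6% for TIMP3 and 57.2% for MMP14, against a median of 60.8% over the 905 windows. The AP-1 motif TGANTCA, present in 6.41% of the windows, and the TATA box TATAAA, present in 9.95%, were in neither. The E-box CANNTG was found 1 time in the MMP14 window and 0 times in the TIMP3 window, and in 60.6% of all windows. These motifs were chosen as common promoter motifs, a match is a description of the letters only, and start sites of DES and TIMP1 differed by 1436 and 1079 bases between annotations, so their promoters are not shown.

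DES encodes desmin, the muscle-type intermediate filament that marks stellate cells and vascular smooth muscle cells. It lies on chr15:121427103-121435424 (+ strand, ENSSSCG00000020785, Sscrofa11.1). Normalized counts were 452, 565, 442, 543 and 500 in PN livers 1, 2, 3, 4 and 6, and 262, 214 and 301 in bottle-fed livers 1 to 3. The lowest PN liver was above the highest bottle-fed liver. DES averaged 500.5 ± 54.2 in PN livers and 259 ± 43.4 in bottle-fed livers (SD, n = 5 and 3), a 1.93-fold increase with a log2 fold change of 0.95 ± 0.23 (SE). The adjusted p was 0.00294 (edgeR's quasi-likelihood test, Benjamini-Hochberg), and the two-sided exact permutation test gave p = 0.0179. The excluded PN 5 had 830 normalized counts and was the highest of all 9 libraries. In the table of 1054 genes, 43.5% of genes did not overlap between the groups and were higher in PN livers, as DES, MMP14, TIMP1 and TIMP3 were.

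**Figure D2:**
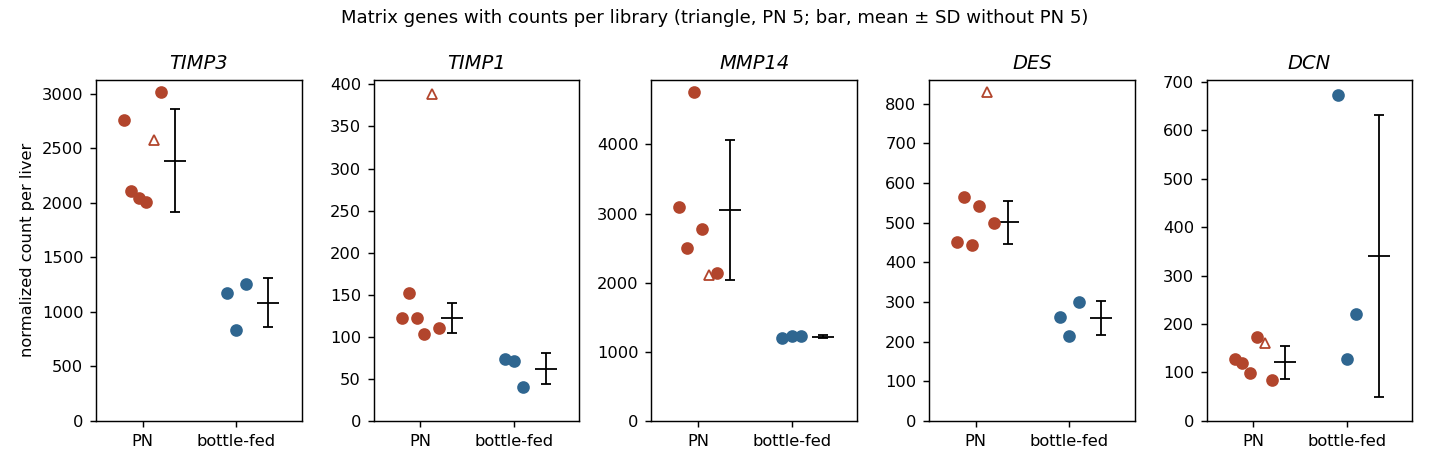
Normalized counts of DES, DCN, MMP14, TIMP1 and TIMP3 in each PN liver and each bottle-fed liver, with bars of mean ± SD over 5 PN and 3 bottle-fed livers and PN 5 as a triangle. The PN livers lie above the bottle-fed livers for all genes but DCN, where bottle-fed 1 stands alone at 673.

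The other 6 mesenchymal markers had only the authors' mean, which is given here per kilobase of exons so that genes can be set side by side. No source used here says which libraries are behind this mean, and it is no comparison of PN with bottle-fed livers. It was also not the mean of the deposited normalized counts: over 1037 genes in both tables, the authors' mean was 1.07 times the mean of the 8 libraries compared in the median gene, 0.785 times at the 5th and 1.87 times at the 95th percentile. For the 5 members in both tables, this ratio was 1.14 for DES, 1.26 for DCN, 1.10 for MMP14, 1.06 for TIMP1 and 0.9498 for TIMP3. The levels per kilobase of all members carry this uncertainty. ACTA2, the smooth muscle actin of activated stellate cells, had a mean level of 789 normalized counts per kilobase, VIM, the intermediate filament vimentin, 674, and TAGLN, an actin-binding protein of contractile cells, 661. DES stood at 191 and PDGFRB, the receptor for platelet-derived growth factor on stellate cells, at 187. RGS5, a G-protein regulator of pericytes, was at 149, and PDGFRA, the other receptor chain, was the lowest of the 7 at 74.6. Exon lengths came from RefSeq and were 0.98 times the authors' gene lengths in the median of 749 genes, with quartiles of 0.683 and 1.20, so that genes as close as DES and PDGFRB have no order. Of a further list of 37 stellate cell and portal fibroblast markers, 33 were measured (among them LRAT, the enzyme that esterifies vitamin A) and 0 were among the genes with counts per library.

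The 5 members with the highest mean level per kilobase were FN1, COL3A1, SPARC, BGN and POSTN. FN1, which encodes fibronectin, the glycoprotein that hepatocytes also secrete into plasma, was far above every other member at 7949 normalized counts per kilobase in the authors' mean. Among the fibrillar collagens, COL3A1, the chain of type III collagen, reached a mean level of 1864, against 698 for COL1A1 and 595 for COL1A2, the chains of type I collagen. COL5A1 and COL5A2, chains of the type V collagen found inside mixed fibrils, were lower at 190 and 103. The basement membrane collagens COL4A1 and COL4A2 had mean levels of 394 and 521 per kilobase, and their laminin partners LAMB1 and LAMC1 had 175 and 107. The 2 collagen IV genes lie head to head on chromosome 11 and overlap by 525 bases, so reads at that end could belong to either where strand is not used. COL6A2 and COL6A3, chains of beaded filament collagen, were at 170 and 74.6, and COL14A1, a fibril-associated collagen, was at 118. COL6A1 had no exon length in RefSeq and has no level per kilobase.

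**Figure D3:**
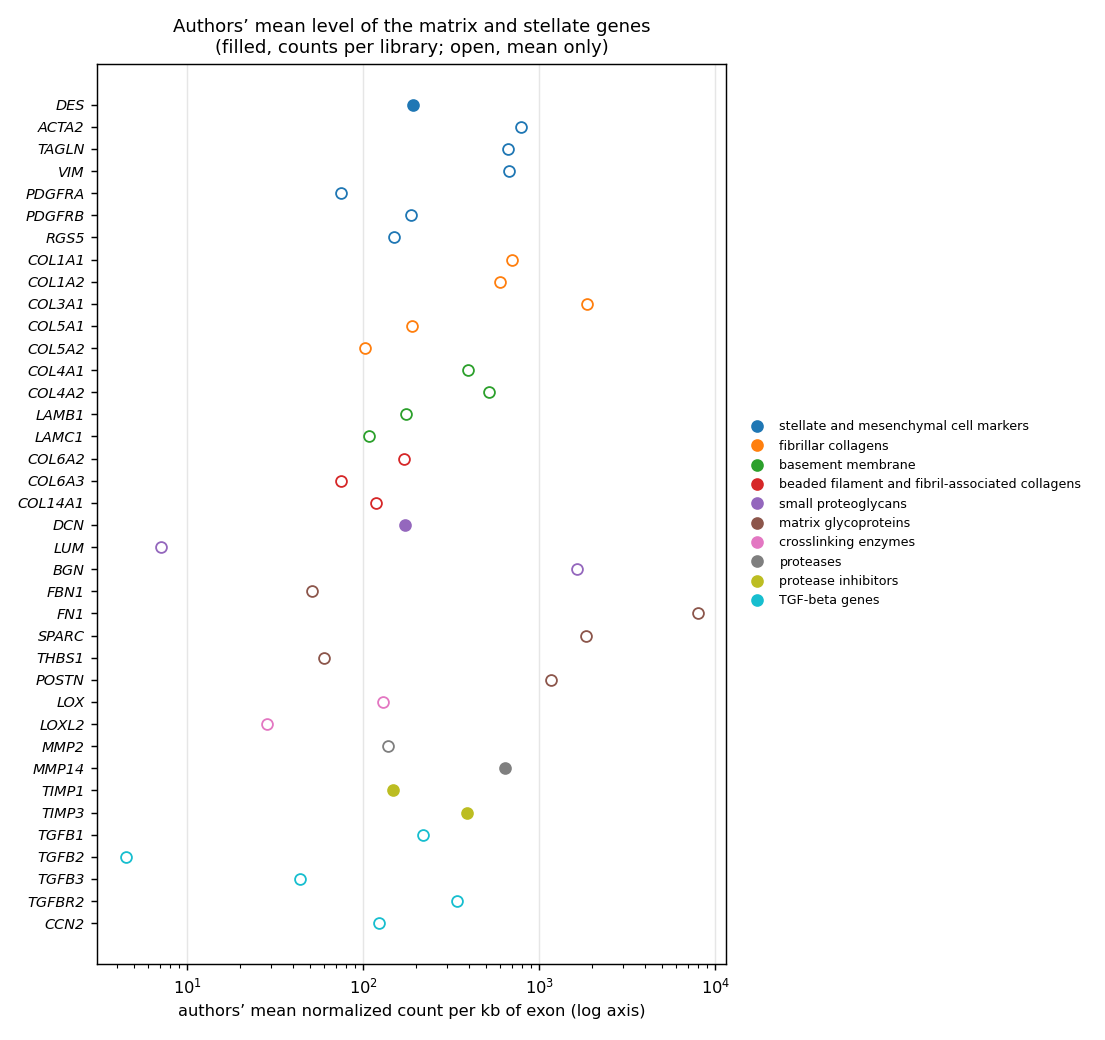
Authors' mean level per kilobase of exons (log axis, normalized counts) for the 38 members with an exon length, colored by role, with filled points for members with counts per library. FN1 is highest at 7949 and TGFB2 is lowest at 4.49.

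Of the other glycoproteins, SPARC, a collagen-binding matricellular protein, had a mean level of 1831 per kilobase and POSTN, periostin, had 1165. FBN1, the microfibril protein fibrillin, stood at 51.3, and THBS1, a thrombospondin that activates latent TGF-beta, at 60.0. The crosslinking enzymes LOX and LOXL2, which oxidize lysines of collagen and elastin, had mean levels of 129 and 28.4 per kilobase. Over the members with a mean, the median was 814 normalized counts, and 33 of 39 lay above the median gene of the table at 209, values that are not divided by length.

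Among the small leucine-rich proteoglycans, which bind collagen fibrils, BGN (biglycan) had a mean level of 1637 per kilobase, DCN (decorin) had 172 and LUM (lumican) had 7.09. DCN and LUM lie 34945 bases apart on chromosome 5. DCN was the only member with counts per library that was lower in PN livers. It lies on chr5:91678608-91714235 (+ strand, ENSSSCG00000000915). Its normalized counts were 127, 120, 99.1, 174 and 84.5 in PN livers 1, 2, 3, 4 and 6, and 673, 128 and 221 in bottle-fed livers 1 to 3. The groups overlapped, since PN 4 was above bottle-fed 2. DCN averaged 121 ± 34.2 in PN livers and 341 ± 292 in bottle-fed livers (SD, n = 5 and 3), with a log2 fold change of -1.50 ± 0.44 (SE) and an adjusted p of 0.00718 (edgeR's quasi-likelihood test, Benjamini-Hochberg). The two-sided exact permutation test gave p = 0.0357. Without bottle-fed 1, the means were 121 in PN livers and 174 in bottle-fed livers, the log2 fold change was -0.53 ± 0.38 (SE), the adjusted p was 0.187 (edgeR), and the call was lost. In bottle-fed 1, DCN was 3.05 times as high as in any other library. PN 5 had 161 normalized counts of DCN, within the range of the other PN livers. For comparison, 45.6% of the 1054 genes were lower in PN livers by the same test, and 41.6% were lower with no overlap between the groups.

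MMP14, TIMP3 and TIMP1 were higher in PN livers, so a protease and 2 protease inhibitors were raised in the same livers. MMP14 encodes a membrane-anchored metalloproteinase that cleaves fibrillar collagen and activates the secreted protease MMP2. It lies on chr7:76174500-76185923 (- strand, ENSSSCG00000002039). Normalized counts were 3099, 2506, 4759, 2780 and 2136 in PN livers 1, 2, 3, 4 and 6, and 1204, 1236 and 1222 in bottle-fed livers 1 to 3. The bottle-fed livers were nearly equal, the PN livers spread widely, and PN 3 stood highest without overlap between the groups. MMP14 averaged 3056 ± 1016 in PN livers and 1221 ± 15.7 in bottle-fed livers (SD, n = 5 and 3), a 2.50-fold increase with a log2 fold change of 1.32 ± 0.29 (SE) and an adjusted p of 0.00178 (edgeR's quasi-likelihood test, Benjamini-Hochberg). The exact permutation test gave p = 0.0179. PN 5 had 2116 normalized counts. MMP2, the gelatinase that MMP14 activates, had a mean level of 139 per kilobase, against 639 for MMP14.

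TIMP3, an inhibitor that binds to the matrix and blocks several metalloproteinases, lies on chr5:12185816-12242637 (- strand, ENSSSCG00000031866). Normalized counts were 2761, 2107, 2049, 2005 and 3021 in PN livers 1, 2, 3, 4 and 6, and 1172, 833 and 1253 in bottle-fed livers 1 to 3. The groups did not overlap, and PN 5 had 2577. TIMP3 averaged 2389 ± 469 in PN livers and 1086 ± 223 in bottle-fed livers (SD, n = 5 and 3), a 2.20-fold increase with a log2 fold change of 1.14 ± 0.26 (SE) and an adjusted p of 0.00214 (edgeR's quasi-likelihood test, Benjamini-Hochberg). The exact permutation test gave p = 0.0179. The gene lies within SYN3, which is on the opposite strand and had an authors' mean of 96.1, and no source used here says whether counting used strand.

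TIMP1 encodes a secreted inhibitor of most matrix metalloproteinases and lies on chrX:42102172-42106297 (+ strand, ENSSSCG00000012277). Normalized counts were 123, 152, 122, 104 and 111 in PN livers 1, 2, 3, 4 and 6, and 73.6, 71.5 and 40.6 in bottle-fed livers 1 to 3. The groups did not overlap. TIMP1 averaged 122 ± 18.4 in PN livers and 61.9 ± 18.5 in bottle-fed livers (SD, n = 5 and 3), a 1.97-fold increase with a log2 fold change of 0.98 ± 0.32 (SE) and an adjusted p of 0.0116 (edgeR's quasi-likelihood test, Benjamini-Hochberg). The exact permutation test gave p = 0.0179. Without bottle-fed 3, the log2 fold change was 0.75 and the adjusted p was 0.0501 (edgeR), above the threshold. PN 5 reached 388 normalized counts, and with all 9 libraries the log2 fold change was 1.42 (adjusted p = 0.0119, edgeR). TIMP1 lies within SYN1, on the opposite strand, which had an authors' mean of 18.2.

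In FPKM, which divides counts by gene length and library total, MMP14 lay between 25.8 and 57.9 over all 6 PN livers and between 14.8 and 15.1 in bottle-fed livers. TIMP3 lay between 22.1 and 33.2 in PN livers and between 9.19 and 13.8 in bottle-fed livers. TIMP1 lay lower, between 5.06 and 18.9 in PN livers and between 1.99 and 3.61 in bottle-fed livers. The ratio of MMP14 to the sum of TIMP1 and TIMP3 in FPKM was 1.04, 0.998, 2.03, 1.25 and 0.673 in PN livers 1, 2, 3, 4 and 6, and 0.890, 1.19 and 0.944 in bottle-fed livers 1 to 3. It was 0.545 in PN 5. The ranges overlapped, with PN livers both above and below every bottle-fed liver. The ratio of TIMP3 to TIMP1 also overlapped, between 3.13 and 6.16 in the 5 PN livers, 1.50 in PN 5, and between 2.63 and 6.97 in bottle-fed livers. Both ratios were chosen after values were seen and are given as descriptions without a test. TIMP2 is missing from the sum because it was not analysed here. The ratio is of transcripts of single genes, and protease activity and its balance with inhibitors were not measured.

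**Figure D4:**
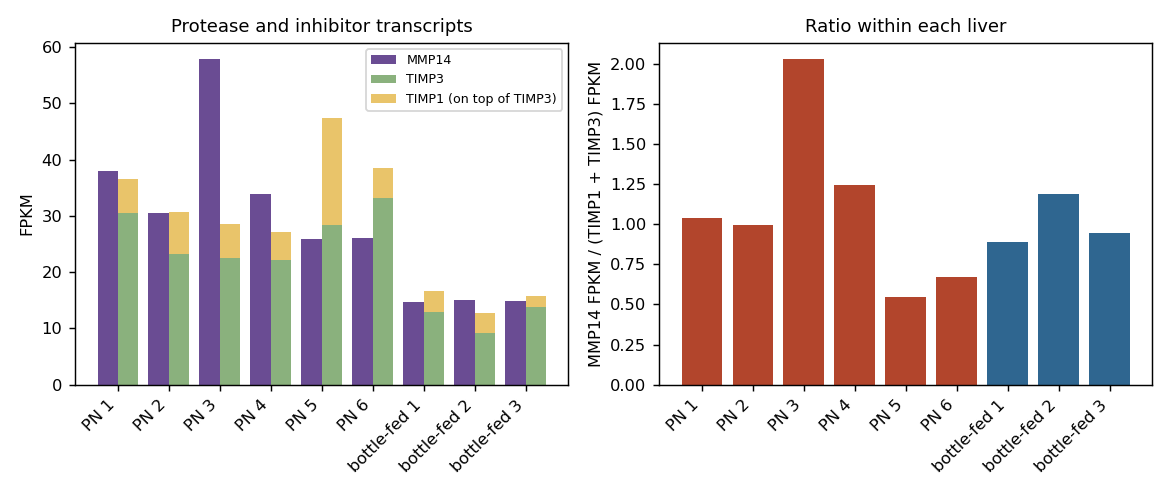
Left, bars of FPKM of MMP14 beside TIMP3 with TIMP1 stacked on it, for each PN and each bottle-fed liver, and right, the ratio of MMP14 to the sum of TIMP1 and TIMP3 in FPKM in the same livers (PN red, bottle-fed blue). Both left bars are taller in every PN liver than in any bottle-fed liver, while the ratios overlap (0.673 to 2.03 in 5 PN livers and 0.545 in PN 5, 0.890 to 1.19 in bottle-fed livers).

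The TGF-beta genes among the members had only the authors' mean. TGFBR2, the receptor that binds the ligand, had a mean level of 340 per kilobase. The ligand TGFB1 stood at 218, TGFB3 at 43.9 and TGFB2 at 4.49. CCN2, a matricellular target of the pathway, stood at 123. Of the 49 other genes of this pathway, 47 were measured and 7 had counts per library, of which 3 were higher and 3 lower in PN livers and 1 did not pass the test. BMP6, the ligand that induces hepcidin, was 734 ± 98.9 in PN livers and 241 ± 48.2 in bottle-fed livers (log2 fold change 1.60 ± 0.25, SE). KLF6, a transcription factor induced in activated rat stellate cells, was 1135 ± 188 in PN livers and 529 ± 76.8 in bottle-fed livers (log2 fold change 1.10). FST, the activin-binding follistatin, was 151 ± 77.0 in PN livers and 447 ± 132 in bottle-fed livers (log2 fold change -1.57). INHBB, the activin B subunit, was 74.4 ± 34.1 in PN livers and 235 ± 86.9 in bottle-fed livers (log2 fold change -1.66). All are means of normalized counts with SD (n = 5 and 3), and the adjusted p values were 0.000256, 0.00163, 0.00192 and 0.00217 in this order (edgeR's quasi-likelihood test, Benjamini-Hochberg). For BMP6 the authors' mean of 2533 was 4.61 times the mean of 549 over the 8 libraries compared. The level of BMP6 thus differs between the authors' tables, and the reason was not tested.

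Of 35 other matrix proteases and inhibitors, 30 were measured, 4 had counts per library, and all 4 were higher in PN livers, as were 54.1% of the 1054 genes. The other measured genes of this list were not compared between the groups. MMP15, another membrane-anchored metalloproteinase, was 1908 ± 274 in PN livers and 525 ± 151 in bottle-fed livers (log2 fold change 1.86). MMP7, matrilysin, which is made mainly by epithelial cells, was 434 ± 246 in PN livers and 68.4 ± 30.6 in bottle-fed livers (log2 fold change 2.66), with overlapping groups and an exact permutation p of 0.0536 (n = 5 and 3, two-sided). Their adjusted p values were 0.000181 and 0.00163 (edgeR). PLAUR, the urokinase receptor, was 139 ± 45.5 in PN livers and 79.2 ± 29.7 in bottle-fed livers (log2 fold change 0.80, adjusted p = 0.0463, edgeR). The PLAUR groups overlapped, and its call was lost without PN 3, PN 4, PN 6, bottle-fed 2 or bottle-fed 3 (adjusted p = 0.0800, 0.0520, 0.107, 0.123 and 0.171, edgeR). MMP13, a collagenase, had 44 reads in the 5 PN livers and 2 reads in the bottle-fed livers, a ratio of 12.9 with a 95% interval of 3.36 to 110 that covers counting error only, and its adjusted p was 0.0161 (edgeR), which became 0.0528 without bottle-fed 2 and 0.0534 without bottle-fed 3. Both bottle-fed reads came from bottle-fed 1, and without that library the bottle-fed group had 0 reads (adjusted p = 0.0174, edgeR), so that the size of the ratio rests on that library.

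Of 29 other collagens, 20 were measured and 2 had counts per library, both higher in PN livers, as were 54.1% of the 1054 genes. COL17A1, a collagen of epithelial hemidesmosomes, had 691 reads in PN livers and 11 in bottle-fed livers, a ratio of 36.8 (95% interval 20.5 to 74.1, counting error only), at an adjusted p of 0.00258 (edgeR). The log2 fold change was 5.11 ± 1.23 (SE), but 3.66 without PN 2 and 7.50 without bottle-fed 1. Normalized counts of COL17A1 were 431 in PN 2 and 539 in the excluded PN 5. COL5A3, the third chain of type V collagen, was 133 ± 62.6 in PN livers and 50.3 ± 23.4 in bottle-fed livers (adjusted p = 0.0121, edgeR), with overlapping groups, and its adjusted p was 0.0556 without bottle-fed 2. No gene of the 19 measured genes for other collagen processing and crosslinking, and none of the 14 of platelet-derived growth factor and other activators, had counts per library.

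Of 61 other proteoglycans and matrix glycoproteins, 55 were measured and 7 had counts per library, of which 4 were higher and 2 lower in PN livers and 1 did not pass. SPP1, osteopontin, was 588 ± 280 in PN livers and 153 ± 37.1 in bottle-fed livers (log2 fold change 1.94, adjusted p = 0.00111, edgeR). CCN3, a relative of CCN2, was 88.0 ± 26.2 in PN livers and 199 ± 18.3 in bottle-fed livers (log2 fold change -1.18, adjusted p = 0.00325, edgeR). The chains of laminin-332 moved in opposite directions: LAMB3 was 430 ± 135 in PN livers and 194 ± 12.4 in bottle-fed livers, and LAMA3 was 73.2 ± 33.5 in PN livers and 187 ± 34.05 in bottle-fed livers (adjusted p 0.00372 and 0.00471, edgeR).

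Bile duct markers moved with the groups. Of 13 listed markers, 11 were measured and 6 had counts per library, of which 5 were higher and 1 lower in PN livers. EPCAM averaged 337 in PN livers and 81.8 in bottle-fed livers, and KRT7 146 in PN livers and 50.1 in bottle-fed livers, while PROM1 averaged 53.8 in PN livers and 111 in bottle-fed livers. The 6 markers with counts per library are genes the authors had already called, so their sum is no measure of the whole list. Their summed normalized counts lay between 3275 and 5337 in the 5 PN livers, at 8895 in PN 5, and between 1504 and 2832 in bottle-fed livers. Most of the sum was CLDN4, a tight junction claudin named here after values were seen, and without it the sum lay between 805 and 1992 in the 5 PN livers, at 2420 in PN 5, and between 461 and 489 in bottle-fed livers. SPP1 is on this list too and made up a large part of the sum without CLDN4. It was 1022 of 1992 in PN 2, 290 of 805 in PN 6 and 145 of 489 in bottle-fed 1. The part of these cells in the values of the members was not tested. Of 12 measured endothelial markers only VWF had counts per library, at 714 ± 312 in PN livers and 347 ± 62.2 in bottle-fed livers (adjusted p = 0.0115, edgeR), a call lost without bottle-fed 2 (adjusted p = 0.0528). None of the 12 measured Kupffer cell and macrophage markers and none of the hepatocyte markers had counts per library.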

How the data were processed

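Liver mRNA of 6 PN and 3 bottle-fed piglets was sequenced as 150 bp paired-end reads, in 1 batch as the study states. After quality filtering, the authors aligned reads to Sscrofa11.1 with HISAT2 2.0.5 and obtained gene counts from featureCounts 2.0.3. The submitters' notes name DESeq2 1.26.0 and the paper's methods name another version. The authors' deposited table gives raw counts in all 9 libraries for 1054 genes that they had called between the groups. The normalized signal, as deposited by the authors, is the count divided by 1 size factor per library. The FPKM values, deposited beside them, scale counts by library total and by the gene length that the authors list, another deposited column. The mean signal in the authors' deposited table of 16223 genes comes with no statement of its libraries, and it is not the mean of the deposited normalized counts: of 1037 genes in both tables, 53 agreed within 1% with the mean of 8 libraries and 22 with that of 9. The authors' columns of fold changes, standard errors, test statistics and p-values in both tables hold their own comparison and were not used.

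Groups were taken from the treatment labels. Counts of 8 libraries, without PN 5 (marked as the outlier in the study's clustering plot), were tested with edgeR 4.0.16 (quasi-likelihood, offsets from the authors' size factors, no filter, Benjamini-Hochberg over 1054 genes, threshold 0.05) in R 4.3.3. The exact permutation test was two-sided, on log2(normalized count + 1). DESeq2 1.42.0 was an alternative, together with all 9 libraries, each library left out, TMM, library totals, a filter on low counts, the replicate number as a block and pseudocounts of 0.5 and 5. The permutation test with all 9 libraries was added after the data were seen. Scripts were tested on simulated data. All 36 pairs of libraries differed beyond sampling noise (chi-square divided by its degrees of freedom at least 71.8). Replicate numbers did not pair the livers, which came from separate litters. Total counts were recovered from counts and FPKM. Levels per kilobase divide the authors' mean by the union of RefSeq exons. Python 3.11.15, scipy 1.17.1, matplotlib 3.10.9, numpy 2.4.6 and pandas 2.3.3 were used.

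The members and lists were chosen with earlier results of these data known. Every member with counts per library is described, and up to 4 genes of each list are named by the smallest adjusted p. TIMP2 was not analysed here, and 1 gene (left out of its list) and 1 promoter are not reported here.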

Additional observations from a re-analysis of the deposited data

Results flagged for a closer look

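A library stood apart from the other PN livers, by the gap to its nearest neighbor over their range, in 6 of 46 tests over 23 genes. Each gene was tested with all 6 PN livers and again with the 5 without PN 5, and bottle-fed livers were not tested. Chance flags about 1 in 20 separate groups, but these tests share livers, so their number is not set against that share. With all 6 PN livers, PN 5 was set apart for DES at 830 normalized counts (nearest 565), for TIMP1 at 388 (nearest 152) and for MMP13 at 44.4. MMP14 was set apart in PN 3 at 4759 (nearest 3099). With 5 PN livers, COL17A1 was set apart in PN 2 at 431 (nearest 76.9) and FST in PN 6 at 288 (nearest 123). The excluded PN 5 was higher still for both genes, at 539 for COL17A1 and 348 for FST.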

How the results depend on the processing

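For the 5 members with counts per library, 88 of 90 values kept their direction and their side of the threshold, 2 lost the call and 0 reversed. For the permutation tests, the unadjusted p was set against the threshold. The settings reuse the libraries on which the authors had already called these and the other named genes, so a kept call is no independent evidence. With 1 library left out at a time, the log2 fold change of PN over bottle-fed lay between -1.89 and -0.53 for DCN and between 0.75 and 1.13 for TIMP1. DCN lost its call without bottle-fed 1 and TIMP1 without bottle-fed 3, and the cause was not tested. It lay between 0.83 and 1.07 for DES, 1.11 and 1.43 for MMP14, and 0.98 and 1.25 for TIMP3. With the replicate number as a block, it was 0.91 for DES, -1.23 for DCN, 1.45 for MMP14, 1.13 for TIMP1 and 1.09 for TIMP3, and no member's call changed; livers of the same number did not deviate together (correlations -0.03, -0.05 and -0.02). The block lowered the calls to 499 higher and 438 lower genes, against 570 and 481, and ended the calls of VWF and PLAUR (adjusted p = 0.108 and 0.186, edgeR). For the 18 other named genes, 298 of 323 values stayed, 25 lost the call and 0 reversed. The median level per kilobase of the members was 180.7 with exon unions and 182.2 with the longest transcript, and 7 members changed rank, by at most 2 places. TGFB2 was 4.49 per kilobase with exon unions and 7.81 with the longest transcript. With 3 bottle-fed livers and counts for 5 of the members, fold changes of the remaining members were not estimated here.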

Other observations

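Chosen after the values were seen, 3 genes of the 1054 were more than 2 times as high in bottle-fed 1 as in every other library: ATP6V0D2 (3.24 times the next library), DCN (3.05 times) and PKIB (3.00 times). Only genes at or above a floor of normalized counts in bottle-fed 1 were counted. ATP6V0D2 encodes a subunit of the vacuolar proton pump and PKIB an inhibitor of protein kinase A. COL3A1 and COL5A2 lie 16177 bases apart on chromosome 15, and their mean levels per kilobase were 1864 and 103.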
